A study of Mus musculus with 6 samples.

Results

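The cytosolic ribosomal protein genes were followed in hearts of wild-type (WT) and VAChT KDHOM mice. They were taken as the probe sets annotated with a single symbol that is Rpsa, Rplp0, Rplp1 or Rplp2, or that starts with Rpl or Rps and a digit, without the Rps6k kinases and the symbols of named pseudogenes (-ps). The rule found 63 of 19938 genes, on 219 of 35556 probe sets. Of these genes 38, on 132 probe sets, carry symbols of the large subunit, and 25, on 87 probe sets, carry symbols of the small subunit. The rule also took 9 genes that are not standard subunits, on 10 probe sets. Rpl3l, Rpl10l, Rpl39l, Rpl32l, Rpl7l1, Rps27l and Rps4l are paralogs or retained copies, and Rps19bp1 (a binding partner of Rps19) and Rps23rg1 (a retrogene of Rps23) are not subunits. A further 20 symbols, among them Rpl3, Rpl11, Rpl13a, Rps16 and Rps27, stood only on probe sets listing several genes and are not among the members.

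The cytosolic ribosome translates all nuclear-encoded mRNAs and is built from a large and a small subunit, each of ribosomal RNA and a fixed set of proteins needed in equal amounts. The mRNAs of these proteins are among the most abundant in any cell. Most begin with a run of pyrimidines, the terminal oligopyrimidine (TOP) tract, through which mTORC1 and the repressor Larp1 set their translation, so that mRNA level and protein output can part. In the heart, growth of the myocytes is accompanied by ribosome synthesis, and striated muscle makes Rpl3l, a muscle form of the large subunit protein Rpl3.

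All mice were males of 3 months. WT mice were compared with VAChT KDHOM mice, which are homozygous for an allele that lowers the vesicular acetylcholine transporter (VAChT, encoded by Slc18a3) in the whole body. VAChT loads acetylcholine into synaptic vesicles. The labels name heart and the strain C57BL/6 for both groups, whereas the methods name ventricles and a mixed background after 3 generations of backcrossing. Each group had 3 Mouse Gene 1.0 ST arrays, numbered 1 to 3 in the labels, and the RNA on every array was pooled from 2 samples. All values are log2 signals as deposited, a difference is VAChT KDHOM minus WT, and p-values come from limma over all probe sets.

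The labels of some arrays were at odds with single genes. Slc18a3 differed by -0.081 (95% interval -0.54 to 0.38, adjusted p = 0.873 from limma), and where its probe set lies relative to the altered allele was not determined. Ogdhl, an oxoglutarate dehydrogenase-like gene, read 9.60, 7.21 and 10.33 on WT 1, 2 and 3 and 7.06, 10.17 and 7.09 on VAChT KDHOM 1, 2 and 3, so each array numbered 2 read like the other group. As labelled, Ogdhl differed by -0.94, a fold of -1.92, with overlapping groups. The labels were kept. Were these arrays exchanged between the groups, the differences and counts given here would change, and some differences could change direction. Whether they were exchanged was not tested, so every direction given here rests on the labels. Results are therefore also given without both arrays numbered 2. The 8 cardiomyocyte markers (such as Myh6, Tnnt2 and Pln) were all above background, and their mean was 13.23 on VAChT KDHOM 1 against 13.90 to 13.99 on the other 5 arrays. Other bright probe sets were low there too. Of 619 non-members with a mean of 12 and over, 607 lay below the mean of the other 5 arrays, with a median of -0.22. In whole-tissue RNA, fewer cells of a type and less RNA per cell cannot be told apart. Here neither can be told from a drop of bright signals across that array.

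The annotated starts of these genes were searched for the pyrimidine tract. RefSeq promoters (GRCm38.p6) were at hand for 51 of the 63 genes, as 60 promoters reaching from 250 bases before to 50 bases after each start. A run of at least 5 C or T letters holding the start base was present in 15 of the 60 (25%), against 10.1% of all 32851 promoters. The letters CCGGAA, the core of sites of ETS factors, were found on either strand in 45% of the member promoters and in 14.9% of all promoters, and TATAAA in 10% and 13.6%. These matches describe the annotated windows and are not shown to be used. A run at the start did not divide standard subunits from the rest. Rpl32l and Rps23rg1 had 1 of 10 letters each, and the standard subunits Rpl10, Rplp0 and Rpl5 had none that held the start base. In the 50 bases after the start, the longest runs of Rpl10, Rplp0 and Rpl5 were 10, 7 and 7 letters. How often other promoters hold such runs there was not counted. A start annotated a few bases away from a tract would be missed by this search, so its count does not show which mRNAs lack one. The examples are 3 standard subunits with such a run, which capitals mark, and the paralogs Rps27l and Rpl3l, in which the annotated start base is not part of one. Each shows 20 bases before the start and 20 from it, 5′ to 3′, at chr4:86857348-86857387 (minus strand) for Rps6, chr7:141447631-141447670 (plus) for Rplp2, chr7:118116128-118116167 (minus) for Rps15a, chr9:66946066-66946105 (plus) for Rps27l and chr17:24727806-24727845 (plus) for Rpl3l.
Rps6: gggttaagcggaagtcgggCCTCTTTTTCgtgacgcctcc
Rplp2: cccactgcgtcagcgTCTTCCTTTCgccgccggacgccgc
Rps15a: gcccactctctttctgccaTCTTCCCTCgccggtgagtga
Rps27l: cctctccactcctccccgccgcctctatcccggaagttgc
Rpl3l: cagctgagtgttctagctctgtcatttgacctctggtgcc

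No member probe set passed the test between the groups. At an unadjusted p of 0.05 in limma, 0 of the 219 probe sets were higher and 0 were lower in VAChT KDHOM hearts, against 3.93% higher and 7.81% lower of all 35556 probe sets. At an adjusted p of 0.05 the count was also 0, against 0.00281% (1 probe set) of all, and the analysis of variance that the study's methods name called 0 members as well. Outside the members are 239 probe sets with several symbols, at least 1 of them of the rule. Of these, 10 were higher and 0 lower at an unadjusted p of 0.05 in limma. The smallest unadjusted p of any member was 0.0865, for Rps15a. Calls were also fewer among bright probe sets. Of the 3419 probe sets with a mean of at least 10, which 164 of the members also reach, 3.19% were called. The differences ran from -0.21 to 0.28, with a median of 0.027 beside -0.018 over all probe sets. A missed threshold does not show equal levels, but the 95% intervals bound the differences. For 191 of the 219 members (87.2%) the whole interval lay within 1.3-fold in either direction, against 52.9% of all probe sets and 78.5% of those with a mean of at least 10.

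**Figure D1:**
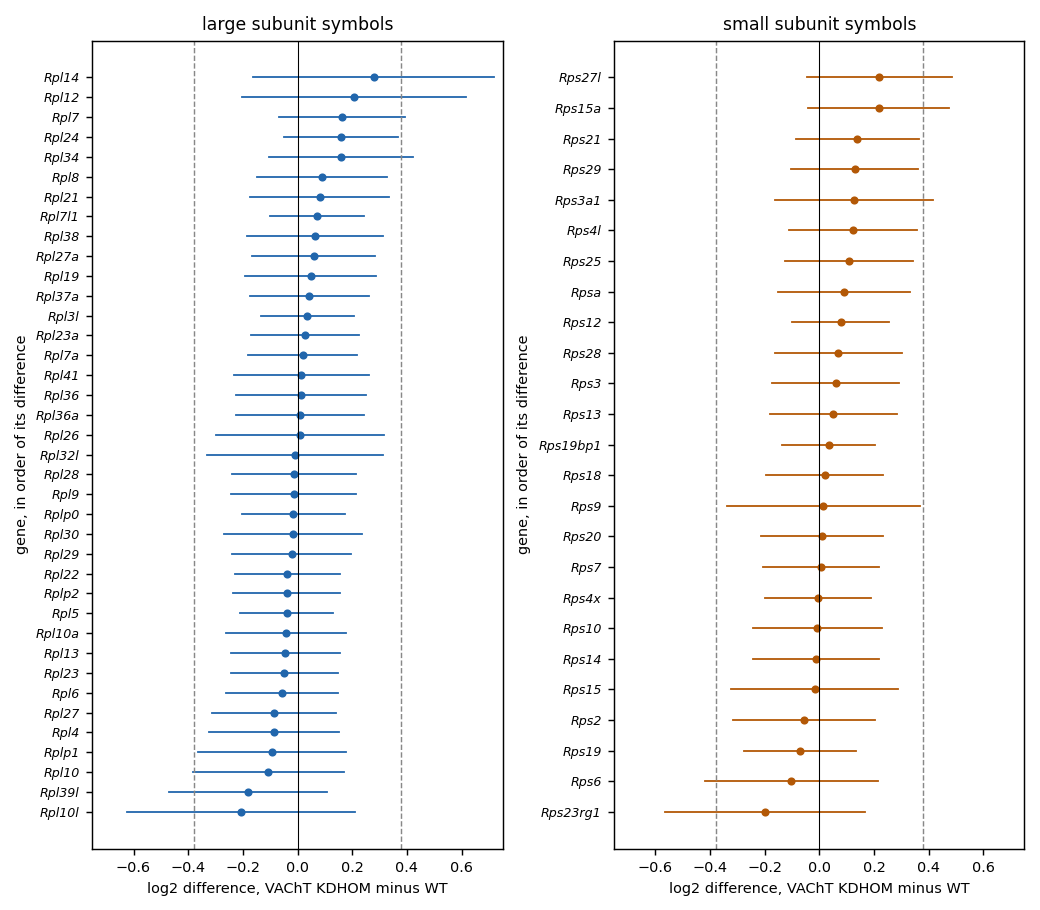
Log2 difference (x axis, VAChT KDHOM minus WT) of the 63 genes (y axis), each at its brightest probe set, with large subunit symbols on the left and small subunit symbols on the right. Points are differences, bars are 95% intervals from limma over 3 arrays in each group, and dashed lines mark 1.3-fold. Every bar crosses 0, and the widest belong to dim genes such as Rpl14 and Rpl10l.

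More differences lay above 0 than below. The difference was above 0 for 153 members (69.9%), against 45.8% of all probe sets and 61.3% of those with a mean of at least 10. With 1 probe set per gene, the brightest, it was above 0 for 36 of 63 genes (57.1%), a share below that of the bright probe sets. Groups that did not overlap, with all 3 VAChT KDHOM arrays above all 3 WT arrays, were found at 8 members (3.65%, against 6.25% of all probe sets), and none did so in the lower direction (12.9% of all). The 8 belong to 5 genes, with 4 probe sets of Rps12, of which 3 hold identical values, and 1 each of Rpl13, Rpl21, Rpl24 and Rpl7l1. Without both arrays numbered 2, 109 of 219 members (49.8%) lay above 0 and the median was -0.0005, so members above 0 no longer outnumbered those below. In that setting 44.8% of all probe sets lay above 0 (median -0.028). Of those with a mean of at least 10, 58% did (median 0.021). Centring each array on its median put 197 members (90%) above 0, along with 61% of all probe sets and 82.8% of those with a mean of at least 10.

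The members moved together between arrays more than between groups. Their mean signal was 10.85, 10.83 and 10.84 on WT 1, 2 and 3, and 10.75, 10.94 and 10.93 on VAChT KDHOM 1, 2 and 3. The WT arrays thus lay close together, whereas the VAChT KDHOM arrays lay on both sides of them. VAChT KDHOM 1 held the lowest value for 118 members (53.9%) and the highest for 0. Among all probe sets it was lowest for 19.3%, and among those with a mean of at least 10 for 39%. VAChT KDHOM 2 was highest for 82 members (37.4%), against 11.8% of all probe sets and 21.4% of those with a mean of at least 10. VAChT KDHOM 3 was highest for 91 (41.6%), against 25.4% and 38.2%, so its share was near that of the bright probe sets. The cardiomyocyte marker mean was also lowest on VAChT KDHOM 1, and the part of that array in the result was not tested beyond leaving it out. Without it, 204 of 219 members (93.2%) lay above 0 with a median of 0.097, beside 49.8% and a median of -0.0009 over all probe sets and 78.9% and 0.068 over those with a mean of at least 10. Limma then called 5 members higher (2 probe sets of Rpl24, 1 each of Rpl34, Rps25 and Rps27l, differences of 0.23 to 0.33) and 0 lower, all at an adjusted p of 0.518 or 0.519. Of all probe sets, 3.77% were called higher without this array.

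**Figure D2:**
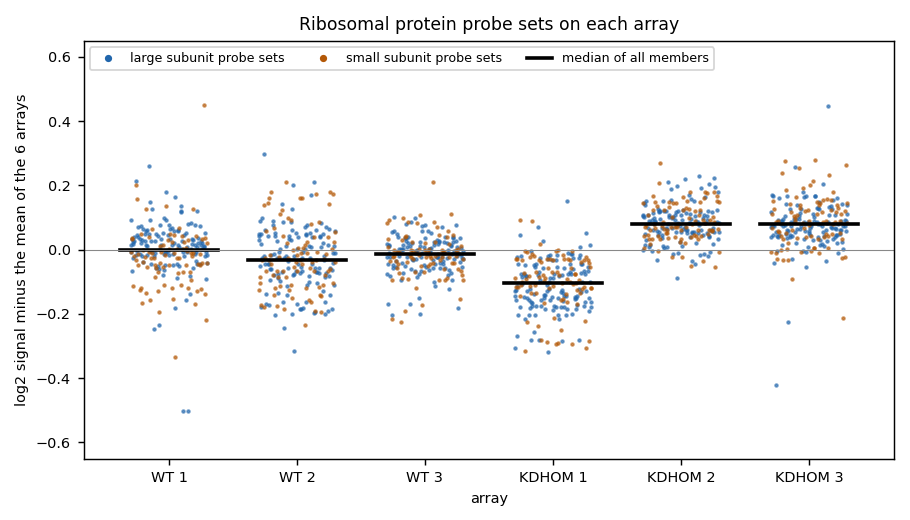
Log2 signal of each of the 219 probe sets minus its own mean over the 6 arrays (y axis), for each array (x axis). Points are probe sets of the large (blue) and small (orange) subunit, and black lines are medians over all members. The cloud of VAChT KDHOM 1 lies below 0 and those of VAChT KDHOM 2 and 3 above it, with the WT arrays between.

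The deviation of VAChT KDHOM 1 was largest for the brightest probe sets. Against the mean of the other 5 arrays, the median member deviated by -0.058 on this array where the mean signal was under 9 (18 probe sets), by -0.083 from 9 to 10 (37), by -0.082 from 10 to 11 (64), by -0.16 from 11 to 12 (46) and by -0.21 at 12 and over (54). In the brightest band all 54 members lay below 0. Other probe sets of the same bands deviated by -0.038, -0.018, -0.037, -0.094 and -0.22, so the values of members and others lay close together in the brightest band and further apart from 9 to 12. On WT 2, members from 9 to 10 and from 10 to 11 deviated by -0.12 and -0.080, while other probe sets of these bands deviated by -0.0039 and 0.013. WT 2 divided the genes. Of the 63 genes at their brightest probe set, 25 read higher there than on both other WT arrays and 27 read lower.

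**Figure D3:**
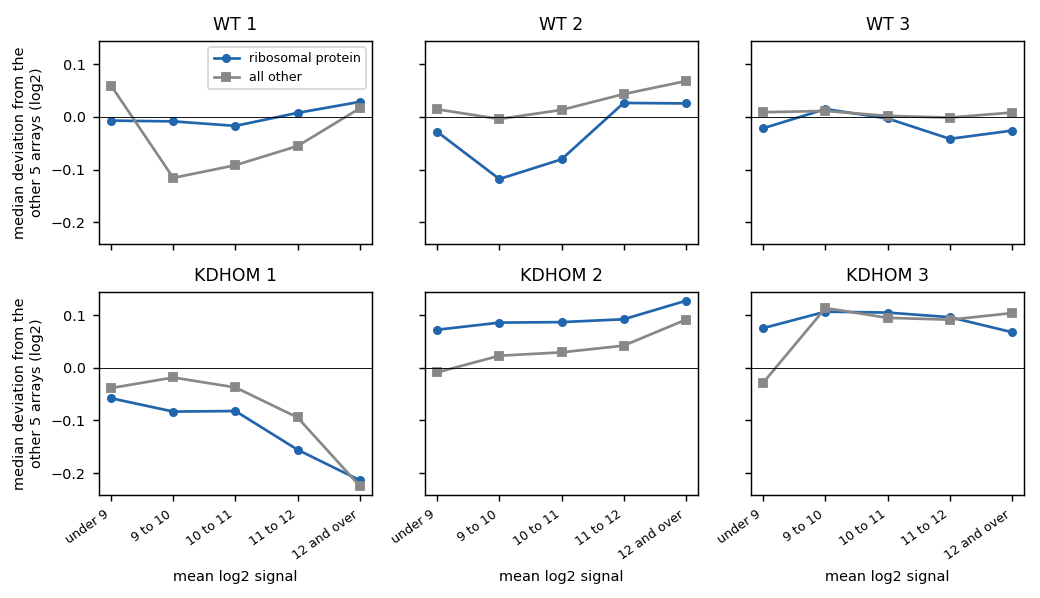
Median deviation (y axis, log2) of each array from the mean of the other 5, by band of mean log2 signal (x axis), for the members (blue circles) and all other probe sets (grey squares), 1 panel per array. On VAChT KDHOM 1 both lines are lowest at 12 and over, at -0.21 and -0.22, and on WT 2 the members dip between 9 and 11 where the others do not.

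Both subunits had medians near 0. The median difference was 0.019 over the 132 large subunit probe sets, of which 89 (67.4%) lay above 0, and 0.051 over the 87 small subunit probe sets, of which 64 (73.6%) did. With 1 probe set per gene, the brightest, the medians were -0.0011 over 38 large subunit genes and 0.034 over 25 small subunit genes. Within each array, the mean of the large minus that of the small subunit genes at their brightest probe set was 0.045, 0.11 and 0.090 on WT 1, 2 and 3, and 0.055, 0.053 and 0.049 on VAChT KDHOM 1, 2 and 3. The VAChT KDHOM values lay within the WT range. Over all member probe sets the same offset was 0.41, 0.37 and 0.38 in WT and 0.36, 0.38 and 0.36 in VAChT KDHOM, again with overlap. These offsets compare different probe sets and so carry only their change between arrays, not the proportion of the subunits.

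The stalk of the large subunit, which recruits the elongation factors, is formed by Rplp0, Rplp1 and Rplp2. Rplp0 read 12.86, 12.86 and 12.83 in WT and 12.73, 12.86 and 12.92 in VAChT KDHOM hearts, a difference of -0.015 (95% interval -0.20 to 0.17). Rplp1 read 13.12, 12.88 and 13.05 in WT and 12.71, 13.04 and 13.01 in VAChT KDHOM, a difference of -0.093 (-0.37 to 0.18). In both genes the groups overlapped and VAChT KDHOM 1 was lowest. The 2 probe sets of Rplp1 disagreed in sign, the dimmer one at 0.14. Rplp2 differed by -0.040 (-0.24 to 0.16). Rpsa, a small subunit protein also known as the laminin receptor, differed by 0.090 (-0.15 to 0.33) at its brightest of 5 probe sets, and from -0.053 to 0.090 over all of them.

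Rps6, the substrate of the S6 kinases downstream of mTORC1, was the brightest member. It read 13.38, 13.52 and 13.28 in WT and 13.04, 13.52 and 13.32 in VAChT KDHOM hearts, with the first VAChT KDHOM array below all the others and the second level with the highest WT array. The difference was -0.10 (95% interval -0.42 to 0.21, adjusted p = 0.752 from limma). All 8 Rps6 probe sets differed by -0.11 to -0.071, and all 8 were lowest on VAChT KDHOM 1. Without that array the brightest stood at 0.025. Rpl10, a late-joining protein of the large subunit needed before the subunits can join, showed the same pattern. It read 12.90, 12.86 and 12.83 in WT and 12.51, 12.92 and 12.85 in VAChT KDHOM hearts. Its 6 probe sets lay between -0.11 and -0.057, and the 2 with the most negative differences were above 0 without VAChT KDHOM 1.

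Other subunits known for roles outside routine translation also had intervals that held 0. Rps19, the gene most often mutated in Diamond-Blackfan anaemia, differed by -0.071 (95% interval -0.28 to 0.13). Rps14, whose loss underlies the anaemia of the 5q deletion syndrome, differed by -0.011 (-0.24 to 0.22). Rpl5, which binds Mdm2 within the free 5S particle, differed by -0.040 (-0.21 to 0.13) at its brightest probe set and by 0.18 at the dimmest of 5. Mdm2 itself differed by 0.10 (-0.072 to 0.28). Rps3, at the mRNA entry channel, differed by 0.060 (-0.17 to 0.29), and Rpl38, which is needed for the translation of Hox mRNAs in the embryo, by 0.063 (-0.19 to 0.31) at the brightest of 4 probe sets.

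The widest positive differences belonged to Rpl14, Rps25, Rps27l, Rps15a and Rpl12, none of which passed the test. Rps15a, a small subunit protein, read 8.52, 8.31 and 8.29 in WT and 8.57, 8.75 and 8.45 in VAChT KDHOM hearts. Only WT 1 reached into the VAChT KDHOM range. The difference was 0.22 (95% interval -0.040 to 0.47, adjusted p = 0.461 from limma), and 0.10 without both arrays numbered 2. Rps25, which serves initiation at viral internal entry sites, read 9.75, 10.09 and 10.06 in WT and 10.002, 10.23 and 10.36 in VAChT KDHOM hearts at the dimmest of its 6 probe sets. That probe set differed by 0.24 (-0.072 to 0.54) and all 6 lay between 0.11 and 0.24. Rpl14 read 6.83, 7.39 and 7.35 in WT and 7.32, 7.31 and 7.78 in VAChT KDHOM hearts, a difference of 0.28 (-0.16 to 0.72), and 0.097 without WT 1. It had the widest spread of the members (SD 0.30 over the 6 arrays), with WT 1 alone low and VAChT KDHOM 3 alone high. Rpl12, a protein at the base of the stalk, was also low on WT 1 alone, at 6.32 beside 6.78 to 7.02 on the other arrays, and differed by 0.21 (-0.20 to 0.62), and by 0.0069 without WT 1. Rpl7, Rpl7a and a probe set of Rpl5 followed with 0.18 to 0.19. At the low end, after Rpl10l, Rps23rg1 and Rpl39l, a probe set of Rpl10a stood at -0.12 (-0.34 to 0.11), followed by Rpl10 and Rps6.

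The muscle paralog Rpl3l read 10.84, 10.81 and 10.83 in WT and 10.85, 10.82 and 10.91 in VAChT KDHOM hearts. It had the lowest SD over the 6 arrays of the 63 genes at their brightest probe set (0.035), and the low value of VAChT KDHOM 1 seen in Rps6 and Rpl10 was absent. This was not particular to Rpl3l. That array was lowest in 31 of the 63 genes, and in Rpl7l1, Rps15a and Rpl12 it lay above the mean of the others. Rpl3l (mean 10.84) also reads dimmer than Rpl10 (12.81) and Rps6 (13.34), and the brightest probe sets deviated most on that array. Its difference was 0.036 (95% interval -0.13 to 0.20, adjusted p = 0.838 from limma), and 0.048 without both arrays numbered 2. Rpl3 itself had no single-symbol probe set, so no balance between the forms is given.

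Rps27l, a paralog of Rps27 that is induced by p53, read 10.24, 10.18 and 10.04 in WT and 10.18, 10.40 and 10.54 in VAChT KDHOM hearts. VAChT KDHOM 2 and 3 lay above all WT arrays, and VAChT KDHOM 1 lay among them. The difference was 0.22 (95% interval -0.045 to 0.48, adjusted p = 0.468 from limma), nearly unchanged at 0.22 without both arrays numbered 2 and 0.32 without VAChT KDHOM 1. Rpl7l1, a nucleolar relative of Rpl7 with a part in large subunit assembly, read 10.50, 10.60 and 10.56 in WT and 10.61, 10.63 and 10.65 in VAChT KDHOM hearts. Its groups did not overlap, by a small margin, and it differed by 0.072 (-0.10 to 0.24). Rps4l, a retained copy of Rps4x, differed by 0.12 (-0.11 to 0.36) at its brighter probe set and by -0.025 at the other. Rpl32l differed by -0.010 (-0.33 to 0.31) and Rps19bp1 by 0.034 (-0.14 to 0.20).

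Rpl10l and Rpl39l, paralogs best known from the testis, were the dim end of the set. Rpl39l read 5.06, 4.77 and 4.83 in WT and 4.63, 4.92 and 4.57 in VAChT KDHOM hearts. It was the 1 member below the 95th percentile of olfactory receptor probe sets (6.503, over 1035 of them), which stand in for background here. Its difference was -0.18 (95% interval -0.47 to 0.11), and -0.34 without both arrays numbered 2, where limma gave an unadjusted p of 0.0424, the 1 call of a member in that setting. Rpl10l read 7.14, 7.22 and 6.72 in WT and 6.97, 6.99 and 6.504 in VAChT KDHOM hearts, with the array numbered 3 lowest in either group, and differed by -0.21 (-0.62 to 0.21). The retrogene Rps23rg1 differed by -0.20 (-0.56 to 0.17), and by -0.024 without WT 1.

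**Figure D4:**
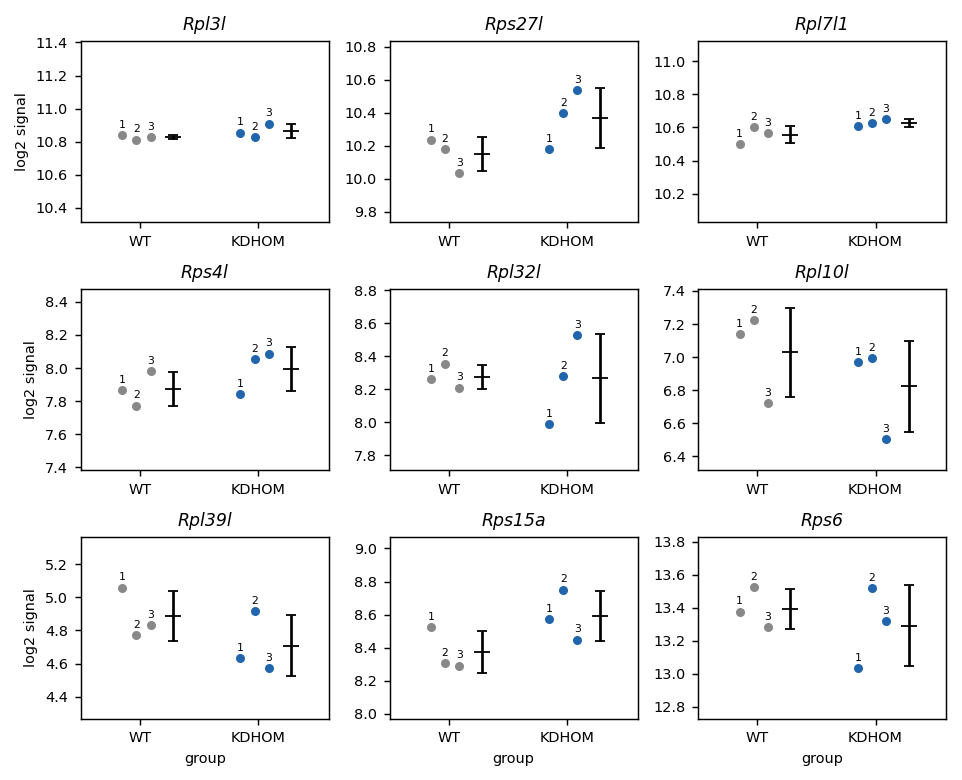
Log2 signal (y axis, each panel spanning the same range of 1.1) in WT and VAChT KDHOM hearts (x axis) of 7 paralogs or copies and of the standard members Rps15a and Rps6, at the brightest probe set. Numbered points are arrays, and the bar beside them is the mean ± SD (n = 3). Rpl3l is level across all arrays, Rps6 is low on VAChT KDHOM 1, and Rps27l is high on VAChT KDHOM 2 and 3.

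A paralog and its standard partner were both measured in 3 pairs. The shift in the within-array difference between paralog and partner was 0.13 for Rps4l minus Rps4x (exact permutation p = 0.3), -0.090 for Rpl7l1 minus Rpl7 (exact permutation p = 0.6) and -0.099 for Rpl10l minus Rpl10 (exact permutation p = 0.7). The tests were two-sided, the adjusted p over the 3 pairs was 0.7 for each, and 3 arrays against 3 cannot give a p below 0.1. The shift of Rpl7l1 minus Rpl7 changed sign, to 0.064, without both arrays numbered 2.

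Probe sets of the same gene shared a sign in most genes. Of the 63 genes, 39 had several probe sets, led by Rps12 with 14 and Rpl23a with 13. All probe sets of a gene lay above 0 in 16 genes (among them Rps12, Rpl23a, Rps18, Rps28 and Rps25) and below 0 in 6 (Rps6, Rpl10, Rpl10a, Rpl27, Rps2 and Rplp0), and both signs occurred in 17. The range between probe sets of a gene had a median of 0.070 and reached 0.23 in Rplp1. Many of these probe sets may detect processed pseudogenes or near-identical copies, which ribosomal protein genes have in large numbers, so their signals are not independent and the source of each is uncertain. Of the 219 members, 19 shared all 6 values with another, leaving 207 different profiles. In 17 genes every probe set was lowest on VAChT KDHOM 1, and in 11 genes none was, Rps12, Rpl13 and Rpl27a among them.

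**Figure D5:**
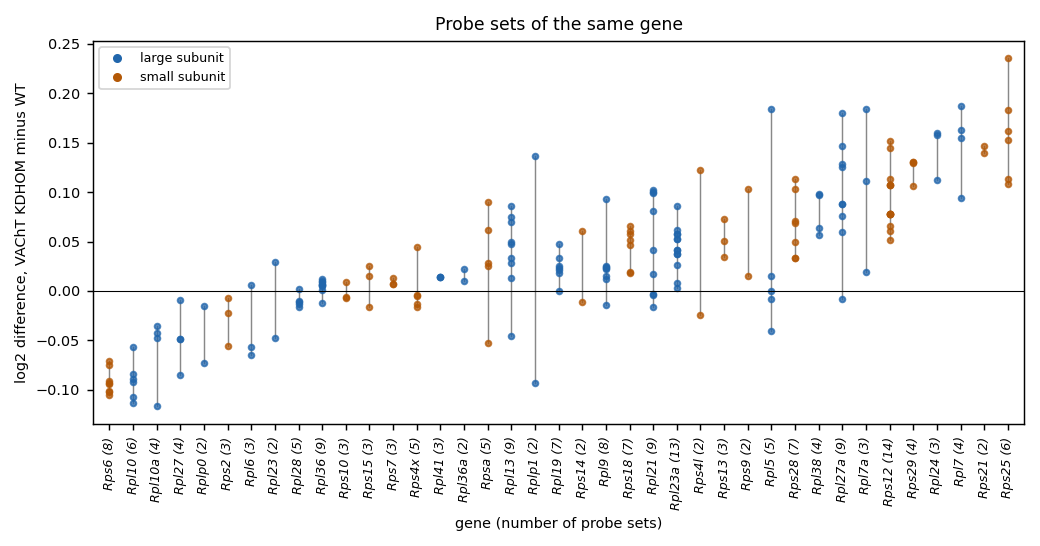
Log2 difference (y axis, VAChT KDHOM minus WT) of every probe set of the 39 genes with more than 1 (x axis, with the number of probe sets), in order of the middle of their range. Points are probe sets of the large (blue) and small (orange) subunit and grey lines join those of a gene. Rps6 and Rpl10 lie wholly below 0, and Rps25, Rps21, Rpl7 and Rpl24 wholly above.

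The machinery around the ribosome was read from lists of genes with single-symbol probe sets. Fau, whose product is processed to a small subunit protein, differed by -0.077 (95% interval -0.28 to 0.13), with VAChT KDHOM 1 lowest at 11.94. Of 12 measured genes of 14 other TOP mRNAs, 0 passed an unadjusted p of 0.05 in either direction, with a median difference of 0.017. At this threshold 3.93% of all probe sets passed as higher and 7.81% as lower. Eef1a1, which delivers aminoacyl-tRNA, differed by -0.15 (-0.41 to 0.11) and Npm1, a nucleolar chaperone, by 0.21 (-0.081 to 0.51). Of 7 measured elongation factors of 8, 0 passed, with a median of -0.050. Eef1a1 and Eef2, the translocase, were lowest on VAChT KDHOM 1 at 12.42 and 12.61, as Rps6 and Rpl10 were.

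More genes that build ribosomes lay above 0 than below. Of 38 ribosome assembly genes, all measured, 34 (89.5%) lay above 0 with a median of 0.069, and 0 passed in either direction. With all arrays, 45.8% of all probe sets lay above 0, and 61.3% of those with a mean of at least 10. Those that passed as higher made up 3.93% of all probe sets, and those that passed as lower 7.81%. The mean of the list overlapped between groups, at 8.51 to 8.65 on WT and 8.58 to 8.77 on VAChT KDHOM arrays. Probe sets outside the members had a median difference of -0.042 under a mean of 9, 0.066 from 9 to 10 and 0.045 from 10 to 11. The list spans these bands, so from 9 to 10 its median was near that of other probe sets of like signal, but under 9 it was not. Among the assembly genes Utp20, of the small subunit processome, differed by 0.23 (95% interval -0.036 to 0.49), Tsr1, a small subunit assembly factor, by 0.17 (-0.036 to 0.38) and the kinase Riok1 by 0.19 (-0.042 to 0.43). Each of these genes was lowest on WT 1, and the lists were not refitted without that array. Without both arrays numbered 2, 37 of 38 lay above 0, the median was 0.16 and 3 passed as higher, at which setting 44.8% of all probe sets lay above 0 and 4.46% passed as higher. Of 23 measured initiation factors of 28, 19 lay above 0 (median 0.065) and 0 passed. Of 17 genes of RNA polymerase I and rRNA transcription, 11 lay above 0 and 1 passed. Taf1d, a subunit of the selectivity factor that brings RNA polymerase I to the rRNA promoter, read 9.26, 9.55 and 9.33 in WT and 9.58, 9.82 and 9.91 in VAChT KDHOM hearts. Its groups did not overlap, as in 6.25% of all probe sets in the higher direction. Taf1d differed by 0.39 (unadjusted p = 0.0139, adjusted p = 0.409 from limma). Of 14 measured genes of 17 around mTORC1 and the S6 kinases, 12 lay above 0 (median 0.057) and 0 passed, with Mtor at 0.12 (95% interval -0.15 to 0.38) and Larp1 at 0.044 (-0.18 to 0.27).

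Of 45 measured markers of the cells that heart tissue can hold, 6 (13.3%) passed an unadjusted p of 0.05, against 11.7% of all probe sets. The endothelial, fibroblast, macrophage and atrial lists had 0 genes past an unadjusted p of 0.05, and Tagln of the 3 smooth muscle markers was higher (0.22). Cd3e and Cd3d of 4 T cell markers, Plin1 of 4 adipocyte markers, and Tnni2 and Actn3 of 6 skeletal muscle markers were lower, none at an adjusted p of 0.05. Of the T cell markers Cd3e alone was above the olfactory receptor level, and Cd3d (mean 5.23) lay below it. Of the erythroid list only Alas2 was measured, at 0.54 (95% interval -0.18 to 1.25). Whether the mix of cells had a part in the ribosomal protein values was not tested.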

How the data were processed

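Heart RNA was hybridised to 6 Mouse Gene 1.0 ST arrays, 3 per genotype, each a pool of 2 RNA samples. RMA in Partek, run by the authors, gave 1 normalized log2 signal per probe set, the unit of the deposited table. Their genome build is not given in the sources used here. Symbols come from the supplied annotation of the platform, in which 21789 probe sets carry 1 symbol, 1621 several and 12146 are unlisted. The values were used unfiltered. A linear model with moderated variance was fitted to each probe set (limma 3.58.1, R 4.3.3), and p-values were adjusted over the 35556 probe sets by the Benjamini-Hochberg method. p-values measure the spread between pools. The members, gene lists and tests were chosen with earlier results of these data known.

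Genes were named for a known role, as paralogs, for the 8 largest and 8 smallest differences, for several probe sets, as the 3 widest over arrays, or, of each list, as those with the smallest p. A gene with several probe sets was taken at its brightest unless stated. Genes of the T cell, adipocyte, skeletal muscle and smooth muscle lists were named where they passed. Paralog pairs were compared by exact permutation tests. Tested on simulated data of 3 against 3 arrays, the procedure found 89.4% of probe sets changed by 0.5 (log2) and 98.4% of those changed by 1 at an unadjusted p of 0.05, with 5.20% of unchanged ones called. The simulated noise was independent for each probe set and array, and the labels were taken as right. The real arrays deviate over many probe sets at once, so these shares need not hold for them. The number of arrays limits the precision. Alternatives were further quantile normalization, centring, a filter on dim probe sets, other eBayes settings, weights for arrays, a replicate block, arrays left out, the methods' ANOVA, 1 probe set per gene, no paralogs and a stricter p. Adding probe sets with several symbols was chosen after seeing the data.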

Additional observations from a re-analysis of the deposited data

How the results depend on the processing

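The count of members at an adjusted p of 0.05 was 0 under each alternative for which it was computed (normalization, centring, the filter, eBayes settings, array weights, the block, the ANOVA and arrays left out), and the medians of the members and of either subunit moved by less than the SD between arrays of the member mean (0.078, and 0.080 and 0.076 for the large and small subunit). These SDs were pooled within the groups and include the low VAChT KDHOM 1 array, so they are wide limits for leaving that array out. The median of the members, 0.027 with all arrays, ran from -0.0038 without VAChT KDHOM 3 to 0.097 without VAChT KDHOM 1. At an unadjusted p of 0.05 (0 higher and 0 lower with all arrays), 6 members were higher after centring each array (6.72% of all probe sets) and 1 with array weights (3.44% of all), 1 was lower without both arrays numbered 2 (6.16% of all), and 10 of 458 were higher with probe sets of several symbols added (3.93% of all). All 10 were among the 239 added probe sets. Leaving out each array in turn gave 0 to 5 higher (2.39% to 4.9% of all) and 0 to 1 lower (3.69% to 8.2% of all). The most higher members came without VAChT KDHOM 1, where 3.77% of all probe sets were called higher. With the replicate number as a block, 1 was higher (Rps25, with 4.4% of all) and 1 lower (Rpl10l, with 8.18% of all). Deviations of same-numbered arrays had correlations of 0.057, -0.12 and 0.13, within the -0.21 to 0.18 of differently numbered ones. No pairing by number was seen, but with 3 arrays a group this cannot exclude one. 1 probe set per gene, no paralogs, the ANOVA, a filter on dim probe sets, other eBayes settings, further quantile normalization and a p of 0.01 gave 0 in either direction.

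Of 474 values of 34 named probe sets under an alternative, 427 kept their direction and side of the threshold, 15 passed it and 32 changed sign, all of these between -0.11 and 0.060 with all arrays, so for these genes the sign is not determined. After further quantile normalization Rpl3l stood at -0.0022, Rplp0 at 0.012 and Rps19bp1 at -0.018. After centring, Rplp0 stood at 0.051, Rpl22 at 0.029, Rpl32l at 0.056, Rpl5 at 0.026, Rplp2 at 0.027, Rps14 at 0.055 and Rps4x at 0.061. With array weights Rpl36a stood at -0.019 and Rps14 at 0.024. Without both arrays numbered 2, Rpl32l stood at 0.023 and Rpl7l1 minus Rpl7 at 0.064. With single arrays left out, the 2 Rpl10 probe sets ranged from -0.19 to 0.019 and from -0.20 to 0.017, the 2 of Rps6 from -0.22 to 0.025 and from -0.20 to 0.014, Rpl22 from -0.088 to 0.0022, Rpl32l from -0.14 to 0.13, Rpl36a from -0.044 to 0.10, Rplp0 from -0.057 to 0.038, Rplp1 from -0.16 to 0.011, Rps14 from -0.085 to 0.049, Rps3 from -0.012 to 0.14, Rps4x from -0.035 to 0.052 and Rpl10l minus Rpl10 from -0.30 to 0.11. The cause was not tested.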
